A study of Saccharomyces cerevisiae with 4 samples.

Results

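The genes described here encode the cytoplasmic mRNA decay machinery of budding yeast: the deadenylases, the decapping enzyme and its enhancers, the Lsm1-7 ring, the exonuclease Xrn1, the Ski complex, the nonsense-mediated decay factors and the RNA-binding protein Pub1. They are 36 named genes, each represented by a probe set annotated to that gene alone, and by the brightest on average where a gene has several. All 36 are among the 5656 genes with such a probe set on the array. Total RNA of 4 cultures was hybridised to whole-genome expression arrays, 1 array per culture: nab3-11 and wild type, each at 37 °C and at 25 °C. The mutant, strain 1099 nab3-11, carries a NAB3 allele that fails at high temperature, and strain 1415 wildtype is its control. All cultures grew in YPD, a rich medium, and were held for 2 hours at the stated temperature, of which 37 °C is non-permissive for the allele. The labels give no further genotype, so whether the strains differ at other loci is not known. The free-text descriptions of both wild type arrays name nab3-11 at 25 °C, but every other label (title, strain, temperature) names wild type, and the grouping here follows the titles.

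As background, Nab3 binds RNA in the nucleus and, together with Nrd1 and Sen1, terminates short and mostly non-coding transcripts. Cytoplasmic mRNAs are turned over by a separate machinery. Their poly(A) tail is first shortened by Pan2-Pan3 and by the Ccr4-Not complex. The cap is then removed by Dcp2 with Dcp1, helped by Pat1, Dhh1, Edc proteins and the Lsm1-7 ring that binds the shortened tail, and Xrn1 degrades the body of the transcript from the 5′ end, while the exosome, brought in by the Ski complex and Ski7, degrades it from the 3′ end. Messages with premature stop codons are recognised by Upf1 (encoded by NAM7), Upf2 (NMD2) and Upf3 and sent to the same enzymes.

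With 1 array per group there is no error estimate and no test, and the number of arrays limits the precision of every value. Signals are in arbitrary units after scaling each array to a trimmed mean of 150, and differences are log2 ratios of signals after values below a floor of 21.8 were raised to it. A gene was called higher or lower at a 2-fold difference. On each array 56.5% to 64.4% of the non-control probe sets exceeded the floor. NAB3 itself, whose allele is not a deletion, had signals of 81.0 and 72.1 in nab3-11 at 37 °C and 25 °C, against 66.7 and 66.2 in wild type, so it does not check the strain. NRD1, also chosen in advance as a strain check, had 716 and 291 in nab3-11, against 88.8 and 125 in wild type. Its signal was thus higher on both nab3-11 arrays than on both wild type arrays. The heat-induced small heat shock gene HSP12 had signals of 2859 and 98.2 in nab3-11 at 37 °C and 25 °C, against 2747 and 43.3 in wild type, which sets both 37 °C arrays apart from both 25 °C arrays.

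With the arrays scaled to a trimmed mean, no mRNA decay gene differed 2-fold in any of the 4 pairwise comparisons. With scaling to a common median, 7 were called lower at 37 °C than at 25 °C in nab3-11 and 2 in wild type. That scaling also moved the median of all genes, from 0.21 to -0.26 in nab3-11 and from 0.29 to -0.19 in wild type. No share of all genes called under it is given here. Of the 36 genes, 33 lay above the floor on all 4 arrays and 3 lay below it on all 4, namely DCP2, EDC1 and UPF3. The catalytic decapping subunit gene DCP2 had at most 17.1 signal units and UPF3 at most 17.8, and EDC1, a small decapping enhancer gene, had at most 0.50. Their levels are therefore bounded by the floor on every array and they have no differences. For 29 of the 33 measured genes the highest and the lowest array lay within 2-fold of each other, and for 17 within 1.5-fold. The exceptions to the 2-fold range were PAT1, DHH1, LSM5 and PUB1, whose highest and lowest arrays differed in both strain and temperature. Because few genes reached 2-fold, counts at 1.5-fold are also given, a threshold chosen after seeing the data. At that threshold 14 of the 33 genes differed in at least 1 pairwise comparison. The shares of all genes for this count and for the ranges over the 4 arrays are not given here, so neither is read as a trait of the decay genes.

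**Figure D1:**
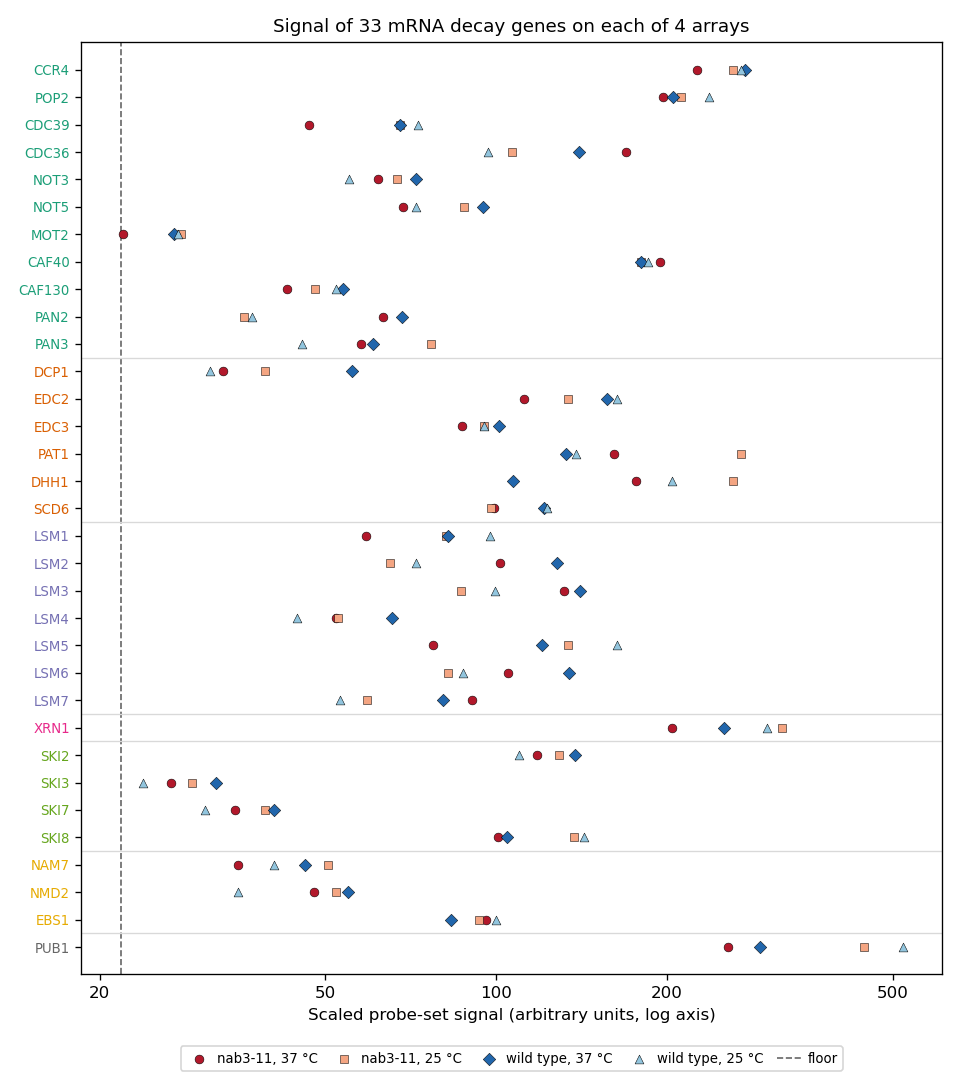
Scaled signal (arbitrary units, log axis) of the 33 measured mRNA decay genes on each of the 4 arrays, 1 point per array, with gene names coloured by role and the floor of 21.8 as a dashed line. The points of most genes lie close together, while those of DHH1, LSM5, PUB1 and PAT1 span more than 2-fold, and signals of different genes cannot be compared because each probe set binds differently.

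At 37 °C, the comparison that addresses loss of Nab3 function, the decay genes lay slightly lower in nab3-11 than in wild type. Their median log2 difference was -0.23, with 27 of 33 genes below zero, whereas all 4770 measured genes had a median of -0.05 with 54.3% below zero. None of the 33 was called at 2-fold, where 4.78% of all measured genes were called higher and 3.94% lower. At 1.5-fold, 1 gene was higher and 2 were lower, against a background of 11.8% higher and 14.0% lower. The lower position of the list was thus made of small differences, between -0.76 and 0.72 on the log2 scale. By bins of mean signal chosen after seeing the data, 7 of 7 decay genes with a mean signal under 50, 9 of 11 between 50 and 100, 7 of 11 between 100 and 200 and 4 of 4 above that lay below the median of the genes in the same bin. This comparison rests on the wild type 37 °C array, whose description conflicts with its title. With nab3-11 at 37 °C set against both 25 °C arrays instead, which includes the temperature effect, the median was -0.13 with 21 of 33 genes below zero, where all measured genes had a median of 0.19 with 38.1% below zero. The list thus lay -0.32 from the median of all genes, against -0.17 in the comparison with wild type at 37 °C. In this setting 0 genes were called at 2-fold, against backgrounds of 15.9% higher and 4.06% lower. At 1.5-fold 3 were higher and 4 lower, against 30.0% and 12.2% of all measured genes.

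**Figure D2:**
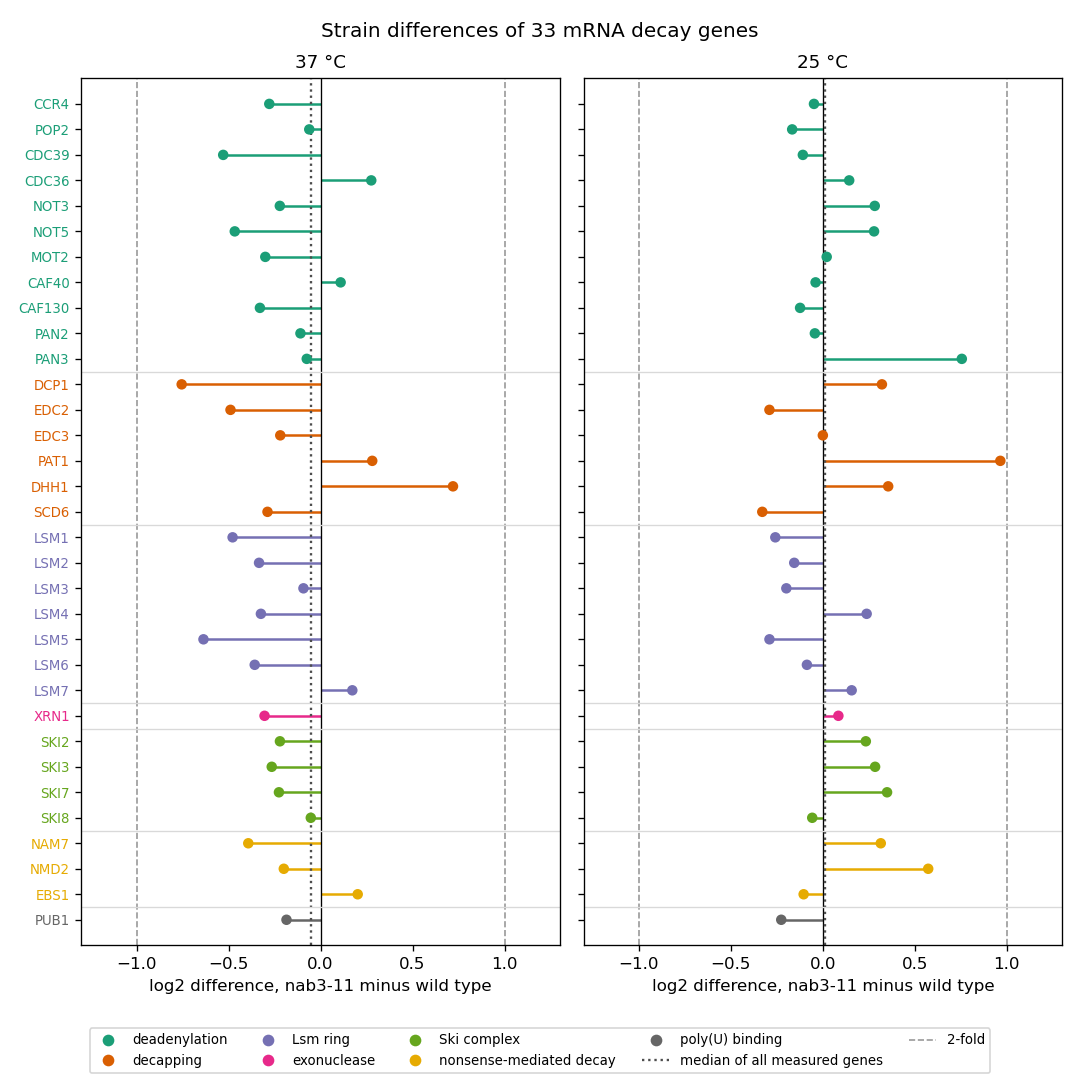
Log2 difference of signal, nab3-11 minus wild type, for the 33 measured mRNA decay genes at 37 °C (left) and 25 °C (right), 1 array per strain and temperature, coloured by role. Dotted lines mark the median of all measured genes (-0.05 at 37 °C and 0.01 at 25 °C) and dashed lines 2-fold; at 37 °C 27 of 33 points lie below zero and at 25 °C 16 of 33.

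Among the decapping factors, the extremes of the whole list stood in opposite directions. DCP1, the activating subunit of the decapping enzyme, had signals of 33.0 and 39.1 in nab3-11 at 37 °C and 25 °C, against 55.6 and 31.3 in wild type. The wild type 37 °C array stood above the other three, so that DCP1 was 1.69-fold lower in nab3-11 than in wild type at 37 °C (log2 difference -0.76) and 1.25-fold higher at 25 °C. Without the wild type 37 °C array, its log2 difference between nab3-11 at 37 °C and both 25 °C arrays was -0.08. DHH1, a DEAD-box helicase gene of translational repression and decapping, had signals of 176 and 261 in nab3-11 at 37 °C and 25 °C, against 107 and 204 in wild type. It was 1.65-fold higher in nab3-11 than in wild type at 37 °C (log2 difference 0.72) and 1.28-fold higher at 25 °C. The difference of DHH1 between nab3-11 at 37 °C and both 25 °C arrays was -0.39. For DCP1 and DHH1 alike, that comparison includes the temperature effect. It therefore cannot show how far their strain differences depend on the wild type 37 °C array. Of all measured genes, 8.55% were at least as far above wild type as DHH1 and 8.28% at least as far below it as DCP1.

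PAT1 and the remaining decapping enhancers differed less at 37 °C. PAT1, a scaffold that joins the Lsm1-7 ring to the decapping enzyme, had signals of 161 and 269 in nab3-11 at 37 °C and 25 °C, against 133 and 138 in wild type. Its nab3-11 25 °C array stood apart from the other three, with a 1.95-fold difference between the strains at 25 °C (log2 difference 0.96) and a 1.21-fold difference at 37 °C. EDC2, a decapping activator gene, had signals of 112 and 134 in nab3-11 at 37 °C and 25 °C, against 157 and 163 in wild type, lower in the mutant at both temperatures. EDC3, another enhancer, ranged from 87.0 to 101.3 over the 4 arrays. SCD6, a translation repressor gene that also activates decapping, had 99.2 and 97.8 in nab3-11 at 37 °C and 25 °C, against 121 and 123 in wild type, and so separated the strains by about the same small ratio at both temperatures, 1.22-fold and 1.26-fold.

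The Lsm1-7 genes encode the ring that binds oligoadenylated mRNA ends and promotes decapping; Lsm2 to Lsm7 are shared with the nuclear Lsm2-8 ring of the U6 snRNA. At 37 °C 6 of the 7 were below zero, with a median of -0.33, and LSM7 was the exception at 0.17. LSM5 had signals of 77.4 and 134 in nab3-11 at 37 °C and 25 °C, against 120.4 and 163 in wild type, lower in the mutant and lower at 37 °C, and its strain difference of -0.64 at 37 °C was 1.55-fold. LSM1, the subunit found only in the cytoplasmic ring, had 59.0 and 81.5 in nab3-11, against 82.1 and 97.5 in wild type, an order like that of LSM5. LSM2 had 3 probe sets, of which only the brightest lay above the floor on any array.

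Of the deadenylase genes, 9 of 11 were below zero at 37 °C, with a median of -0.22, and none passed 1.5-fold. CCR4, which encodes the main deadenylase, had signals of 226 and 261 in nab3-11 at 37 °C and 25 °C, against 274 and 270.3 in wild type. POP2, its partner deadenylase, ranged from 196 to 237. CDC39, which encodes Not1, the scaffold of the complex, was the lowest of the group, with 46.9 and 67.6 in nab3-11, against 67.6 and 72.9 in wild type. In this probe set only the nab3-11 37 °C array stood apart. Of the 9 CDC39 probe sets 3 lay above the floor on any array, and these had log2 differences of -0.53, -0.41 and -0.64 between the strains at 37 °C, all below zero. The second had 43.1 and 54.0 in nab3-11, against 57.1 and 45.8 in wild type, so its nab3-11 37 °C array lay close to wild type at 25 °C. The third had 14.9 in nab3-11 at 37 °C, below the floor, so its difference is bounded by the floor. CDC36, which encodes Not2, was the highest, with 169 and 106.8 in nab3-11, against 139.8 and 96.7 in wild type. The other Not genes lay between them: NOT3 at -0.22, NOT5 at -0.47 and the ubiquitin ligase gene MOT2 at -0.30, the last with a signal of only 22.0 in nab3-11 at 37 °C, just above the floor. CAF130 was at -0.33. CAF40, another subunit gene, had the narrowest range of the 33 genes, with signals of 194 and 179.9 in nab3-11, against 180.1 and 185 in wild type. In the R64 annotation it was the only decay gene next to an snoRNA gene, SNR40, which lies 996 bp upstream on the same strand.

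The remaining groups were lower in nab3-11 at 37 °C by small amounts. XRN1, the 5′ exonuclease gene, had signals of 204 and 318 in nab3-11 at 37 °C and 25 °C, against 252 and 300.3 in wild type, which placed both 37 °C arrays below both 25 °C arrays and nab3-11 at 37 °C lowest. The 4 Ski genes lay between -0.27 (SKI3, the scaffold) and -0.05 (SKI8). Of the nonsense-mediated decay genes, NAM7, the gene of the Upf1 helicase, was at -0.39, with 35.1 and 50.4 in nab3-11, against 46.1 and 40.6 in wild type. NMD2 was at -0.20 and EBS1 at 0.20. PUB1, which encodes a poly(U)-binding protein that stabilises some mRNAs, was at -0.19.

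**Figure D3:**
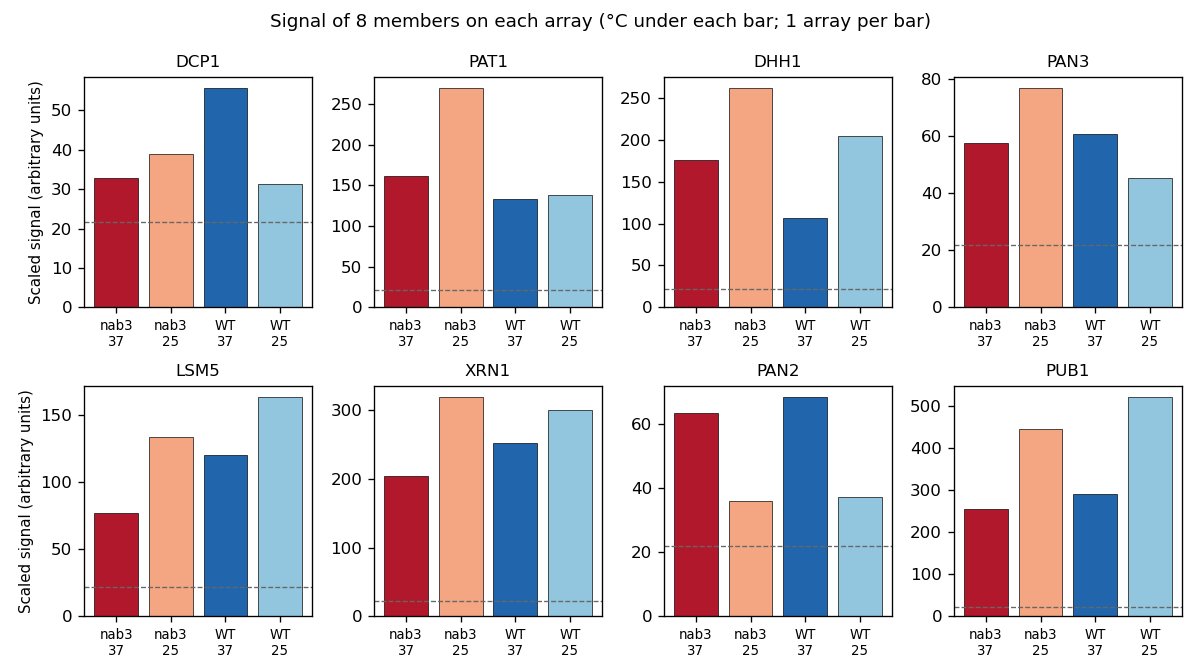
Scaled signal (arbitrary units, axes from 0) of 8 mRNA decay genes, chosen after their values were seen, on the nab3-11 37 °C, nab3-11 25 °C, wild type 37 °C and wild type 25 °C arrays, 1 array per bar, with the floor of 21.8 dashed. DCP1 stands out on the wild type 37 °C array and PAT1 on the nab3-11 25 °C array, whereas PAN2 is higher and PUB1 lower at 37 °C in both strains.

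At the permissive 25 °C the decay genes were centred on zero, with a median log2 difference of 0.00 and 16 of 33 below zero. Again none was called at 2-fold, where 1.17% of all measured genes were higher in nab3-11 and 0.537% lower. At 1.5-fold 2 decay genes were higher, PAT1 and PAN3, and 0 were lower, against backgrounds of 6.05% and 4.76%. PAN3, the regulatory subunit gene of the Pan2-Pan3 deadenylase, had signals of 57.7 and 76.7 in nab3-11 at 37 °C and 25 °C, against 60.7 and 45.4 in wild type. Its log2 difference was 0.76 at 25 °C and -0.08 at 37 °C. The gene of the catalytic partner, PAN2, differed between the strains by -0.04 at 25 °C and -0.11 at 37 °C. Of all measured genes 1.35% were at least as far above wild type at 25 °C as PAT1 and 2.94% as PAN3.

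For the shift to 37 °C in wild type, the sign of the list median depended on how the arrays were scaled. In nab3-11 the list median was below zero under each scaling. In both strains it lay below the median of all genes under each scaling. In nab3-11, where the median of all genes was 0.21, the decay genes had a median of -0.17 and 27 of 33 lay below the median of all genes. In wild type, where the median of all genes was 0.29, they had a median of 0.09 and 18 of 33 lay below it. No decay gene was called at 2-fold in either strain, where 15.7% of all genes were higher and 4.06% lower in nab3-11, and 11.1% higher and 1.44% lower in wild type. Scaling to a common median or quantile normalization ended that count: 7 decay genes were called lower with the common median in nab3-11 and 2 in wild type, and 2 and 1 with quantiles. At 1.5-fold, 5 decay genes were higher and 4 lower in nab3-11, against backgrounds of 30.8% and 12.3%. In wild type 6 were higher and 2 lower, against backgrounds of 29.8% and 6.41%. With a common median these counts became 0 higher and 23 lower in nab3-11 and 0 and 9 in wild type. With quantile normalization they became 0 and 18 in nab3-11 and 0 and 7 in wild type. The backgrounds above belong to the trimmed-mean scale. For the other scalings no share of all genes is given, so their counts at either threshold cannot be set against a background. With scaling to a common median, the median of all genes moved to -0.26 in nab3-11 and -0.19 in wild type, and that of the decay genes to -0.65 and -0.41, so the distance of the decay genes below all genes, -0.38 in nab3-11 and -0.19 in wild type, moved only to -0.39 and -0.23. With quantile normalization this distance was -0.53 in nab3-11 and -0.29 in wild type. The wild type shift uses both arrays whose descriptions conflict with their titles, and no value without them can be given.

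Of the genes past 1.5-fold higher at 37 °C, 3 of 5 in nab3-11 and 3 of 6 in wild type belonged to the Lsm ring. That is 3 of the 7 ring genes in each strain, against 30.8% of all measured genes in nab3-11 and 29.8% in wild type. With so few genes the count is not read as a trait of the ring. LSM2 had signals of 101.4 and 64.9 in nab3-11 at 37 °C and 25 °C, and of 128 and 72.3 in wild type. LSM3, LSM6 and LSM7 had log2 differences of 0.60, 0.35 and 0.61 in nab3-11 and of 0.50, 0.62 and 0.60 in wild type, and in all 3 genes, as in LSM2, both 37 °C arrays stood above both 25 °C arrays. LSM5 and LSM1 ran the other way in both strains, at -0.79 and -0.47 in nab3-11 and -0.44 and -0.25 in wild type, so genes of a single ring differed in direction. The median of the ring was 0.35 in nab3-11 and 0.55 in wild type with the trimmed-mean scale, and with a common median it turned to -0.17 in nab3-11 and was 0.05 in wild type. PAN2 also stood higher at 37 °C, with 63.2 and 36.0 in nab3-11, and 68.2 and 37.1 in wild type, a difference of 1.76-fold and 1.84-fold. CDC36 differed by 0.66 in nab3-11 and 0.53 in wild type. With a common median or quantile normalization 0 decay genes were 1.5-fold higher in either strain. PAN2, LSM2 and LSM7 nevertheless remained above zero in both strains under all 8 alternatives of scaling, floor and probe sets. Their lowest values were 0.29, 0.12 and 0.09 in nab3-11 and 0.35, 0.27 and 0.09 in wild type. CDC36 and LSM3 remained above zero in nab3-11, with lowest values of 0.14 and 0.08, and LSM6 in wild type, with 0.12. With a common median LSM6 turned to -0.17 in nab3-11 and LSM3 to -0.01 in wild type.

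PUB1 was lower at 37 °C by similar ratios in both strains. Its signals were 256 and 445 in nab3-11 at 37 °C and 25 °C, and 291 and 521 in wild type, a difference of 1.74-fold and 1.79-fold. DHH1 had log2 differences of -0.57 in nab3-11 and -0.93 in wild type. Only 1.83% of all genes were at least as far below in wild type as DHH1, and 2.52% as far as PUB1. SKI8, a scaffold subunit gene of the Ski complex, was lower by nearly the same ratio in both strains, with 100.5 and 137 in nab3-11, and 104.3 and 143 in wild type. XRN1 was at -0.64 in nab3-11 and -0.25 in wild type, and PAT1 at -0.74 and -0.06. The brightest genes, with a mean signal of 200 or more, had medians slightly below zero, -0.06 in nab3-11 and -0.08 in wild type. The 4 decay genes among them, PUB1 and XRN1 included, had medians of -0.43 and -0.23. DHH1, SKI8 and PAT1 had mean signals between 100 and 200, where all genes had medians of 0.32 in nab3-11 and 0.33 in wild type. The 11 decay genes of that bin had medians of -0.13 and -0.04.

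**Figure D4:**
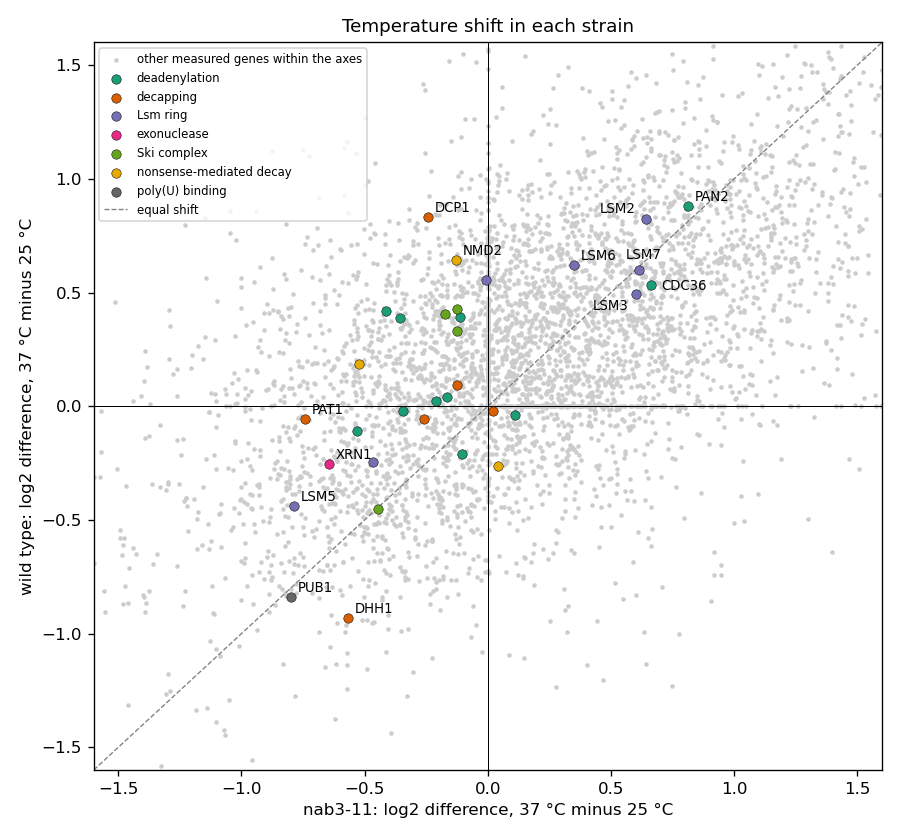
Log2 difference of signal between 37 °C and 25 °C in nab3-11 (horizontal) and wild type (vertical) for the 33 measured mRNA decay genes, coloured by role, over the other measured genes that fall within the axes, 1 array per strain and temperature. Genes past 1.5-fold in either strain are named; on this trimmed-mean scale LSM2, LSM3, LSM6, LSM7, CDC36 and PAN2 are above zero (with a common median LSM6 in nab3-11 and LSM3 in wild type are not) and PUB1, DHH1, LSM5 and XRN1 below zero in both strains, while DCP1 and NMD2 are above zero in wild type alone.

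The shifts of the strains share no array and were correlated across the decay genes, while their directions agreed for a smaller share of them than of all genes. Over the 33 genes Pearson's r was 0.69 and Spearman's rho 0.65, beside 0.63 and 0.58 over 4811 genes measured on any array, a description across genes that are not independent replicates. The direction was the same in both strains for 17 of the 33 genes, 6 above zero and 11 below, beside 3270 of the 4811. For 13 genes nab3-11 was below zero and wild type above, and for 3 the reverse, beside 810 and 389 of the 4811. These directions depended on the scaling. On the trimmed-mean scale 24 of the 33 were below zero in nab3-11 and 14 in wild type, and with a common median 28 and 25.

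The strain-by-temperature difference, the shift of nab3-11 minus that of wild type, was below zero for 23 of 33 decay genes and 53.6% of all genes. The medians were -0.23 and -0.05. By the bins of mean signal used above, decay genes under 50 had a median of -0.58, with 7 of 7 below the median of their bin. Between 50 and 100 the median was -0.22, with 8 of 11 below. Between 100 and 200 it was 0.00, with 5 of 11 below, and above that -0.10, with 2 of 4. The lower position was thus not shared by the brighter genes. DCP1 was the single gene called at 2-fold, lower at -1.08, where 5.45% of all measured genes were called lower and 4.47% higher. The call was lost with the floor at the 55th percentile, where DCP1 was at -0.34, and with the floor added to the signals. At 1.5-fold 6 genes were lower and 0 higher, against backgrounds of 17.3% and 13.3%, and 3 were lower with the floor at the 55th percentile. Besides DCP1 these were PAN3 at -0.83, NMD2 at -0.77, NOT5 at -0.75, NAM7 at -0.71 and PAT1 at -0.68. In all of these but PAT1 the arrays lay in a crossed order, with nab3-11 above wild type at 25 °C and below it at 37 °C. NMD2, for example, had 47.7 and 52.1 in nab3-11 at 37 °C and 25 °C, and 54.7 and 35.1 in wild type, where the wild type 25 °C array stood lowest. NOT5 had 68.5 and 87.7 in nab3-11, and 94.7 and 72.3 in wild type. Picking genes by a low value of this difference favours that crossed order. Over the whole list 13 of 33 genes had it, beside 1126 of the 4811 genes measured on any array. SKI2, SKI3 and SKI7 shared this crossed order with smaller differences of -0.45, -0.55 and -0.58, whereas SKI8 was at 0.00. The signals were low for SKI3, from 23.9 to 32.1, and for SKI7, from 30.7 to 40.6. Both genes lay under the 55th percentile floor of 44.0 on every array. NMD2 had no value when unique probe sets alone were used. This difference and the 37 °C strain difference both use the 37 °C arrays, so their values are not independent of each other.

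Other genes of mRNA decay and mRNA binding, outside the list, were called about as often as all genes between the strains at 37 °C. Of 33 such genes 32 had a probe set of their own and 29 were measured at 37 °C. Of these 29, 1 was called higher in nab3-11 than in wild type at 37 °C and 0 lower, against backgrounds of 4.78% and 3.94%. That gene was TIS11, which encodes a zinc-finger protein that promotes decay of mRNAs under iron shortage, with signals of 77.4 and 61.7 in nab3-11 at 37 °C and 25 °C, against 36.6 and 40.1 in wild type. At 25 °C the exosome subunit gene MTR3 was the only related gene called, lower in nab3-11 by at least 2.08-fold, with 28.8 and 19.0 in nab3-11 at 37 °C and 25 °C, against 53.5 and 45.2 in wild type. Of the 29 related genes 17 lay below zero in the strain difference at 37 °C (58.6%, median -0.08), against 54.3% of all measured genes. The groups differed. Of the 10 exosome core genes 9 lay below zero, with a median of -0.32, as did 2 of 2 no-go decay genes and 4 of 4 poly(A)-binding and granule genes. Of the mRNA-binding regulators 5 of 7 lay above zero, with a median of 0.18, as did DCS1, DCS2 and the 4 remaining genes.

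The largest temperature difference among the related genes was in both strains that of DCS2, a gene of scavenger decapping, the step that hydrolyses the cap left after 3′ decay. DCS2, a stress-linked paralog of DCS1, had signals of 87.0 and 13.9 in nab3-11 at 37 °C and 25 °C, and of 65.9 and 12.7 in wild type, higher at 37 °C by at least 4.0-fold in the mutant and at least 3.03-fold in the control. DCS1, the scavenger enzyme gene, had 104.3 and 50.1 in nab3-11, and 91.1 and 50.2 in wild type, and was called in nab3-11 alone, at 2.08-fold against 1.81-fold in wild type; the difference between the strains, 0.20 on the log2 scale, was not tested. LSM8, the gene of the subunit that replaces Lsm1 in the nuclear ring, had 97.7 and 32.2 in nab3-11, and 62.3 and 29.8 in wild type, so that it stood higher at 37 °C where LSM1 stood lower. RRP4, an exosome cap subunit gene, and JSN1, a Puf-family gene, were called higher in wild type, at 1.16 and 1.11 on the log2 scale, and were at 0.85 and 0.77 in nab3-11. In all, 3 of 29 related genes were called higher at 37 °C in nab3-11 and 4 of 28 in wild type, and 0 were called lower in either strain. Of all measured genes, 15.7% were called higher in nab3-11 and 11.1% in wild type, so these counts lie near the background. PAB1, which encodes the poly(A)-binding protein, lay close to PUB1, at -0.82 in nab3-11 and -0.83 in wild type.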

How the data were processed

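The values deposited by the authors are probe-set intensity on a linear scale; the submitters' processing notes name GCOS 1.1.1 and MAS5. Per the labels' protocols, RNA was amplified with an oligo(dT) primer, which favours polyadenylated RNA. Each array was rescaled here to a 2% trimmed mean of 150, so a change in total RNA per cell cannot be seen. Signals below 21.8, the 40th percentile of non-control signals, were raised to that floor before log2 was taken. Genes were called at 2-fold. With 1 array per group no test was run. The 6504 probe sets with a single gene were named through the R64 annotation, and 5656 genes resulted; the 328 with several genes and 2443 with none were left out. The members and lists were chosen with earlier results of these data known. Genes past 2-fold, and the extremes of each role at 37 °C, were named by a fixed rule, and further genes were named after their values were seen. The computation of the calls was checked on simulated signals with known differences, which gives no error rate for the calls. Sequences and promoter motifs were not analysed here. The software was Python 3.11.15 with pandas 2.3.3, numpy 2.4.6, matplotlib 3.10.9 and scipy 1.17.1.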

Additional observations from a re-analysis of the deposited data

Results flagged for a closer look

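DCP1 had temperature shifts of opposite direction in the strains, -0.24 in nab3-11 and 0.83 in wild type, which gave a strain-by-temperature difference of -1.08 on the log2 scale. The difference was not tested, since each group is 1 array, and it was -0.34 with the floor at the 55th percentile, where DCP1 was not called, as with the added floor. The wild type 37 °C array, at 55.6 signal units against 31.3 to 39.1 on the others, stood highest, and its description conflicts with its title.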

How the results depend on the processing

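Values were recomputed with the deposited signals, quantile normalization, scaling to a common median, an added floor, a lower (25th percentile) or higher (55th percentile) floor, unique probe sets, probe sets averaged, a 3-fold threshold, for the strains at 37 °C alone the wild type 37 °C array left out and, chosen after seeing the data, a 1.5-fold threshold. Of 1330 values of single genes, 8 moved by more than 1.5-fold: 7 without the wild type 37 °C array and DCP1 in the strain-by-temperature difference, which was -0.34 with the floor at the 55th percentile. That call was also lost with the added floor and at 3-fold, where 0 decay genes were called lower, as with the 55th percentile. Moves of less than 1.5-fold could still turn the sign of a gene. With a common median the wild type shift of NOT3 turned from 0.39 to -0.11 and that of SKI3 from 0.43 to -0.08. The genes below zero in the wild type shift went from 14 of 33 to 25. With a common median, 7 decay genes were called lower at 37 °C in nab3-11 and 2 in wild type, and with quantile normalization 2 and 1. Shares of all genes called under these scalings are not given here, so their counts, also at 1.5-fold, have no background beside them. At 1.5-fold, counts of higher and lower genes at 37 °C in nab3-11 were 5 and 4, and became 0 and 23 with a common median and 0 and 18 with quantile normalization, and the added floor gave 0 higher. In wild type they were 6 and 2, and became 0 and 9 and 0 and 7, and the added floor gave 2 higher. For the strains at 37 °C they were 1 and 2, with 1 lower at the 55th percentile floor, 0 lower with the added floor, and 3 and 4 without the wild type 37 °C array. At 25 °C 2 genes were higher, and 1 with the added floor. In the strain-by-temperature difference 6 were lower, and 3 at the 55th percentile floor, where 30 genes were measured. The cause was not tested. Medians of the list moved by less than 1.5-fold in all alternatives, though that of the wild type shift was 0.09 and turned to -0.41 with a common median and to -0.31 with quantiles. No paired analysis was possible because each group is 1 array and no test was run. Signal over background limits DCP2, EDC1 and UPF3, which lay below the floor on all arrays.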
